A study of Rattus norvegicus with 7 samples.

Results

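The first 2 hours of cyclic tensile stress in rat spinal cord cells were described from 2 of the 7 arrays of a time course, the array of unstrained cells (0 hours) and the array of cells strained for 2 hours. The arrays were chosen by their titles. Of 31042 probe sets (31099 less 57 Affymetrix controls), 17602 had a mean signal intensity over both arrays of at least 100 and were compared, and 13440 lay below that floor and received no ratio. Spinal cords of Sprague-Dawley embryos of day 15 (E15), freed of dorsal root ganglia and meninges, were dissociated and plated on flexible culture wells coated with type IV collagen. From day 3 after seeding the cells were stretched to 10% strain at 0.5 Hz, and strain in such wells is greatest at the edge and falls towards the centre. Each array carried RNA pooled from 5 animals, with 1 array at each time, so neither time has a replicate and no test between them is possible. No array of an unloaded culture at 2 hours was compared, and an effect of strain, of 2 more hours in culture and of a different pool of RNA cannot be told apart. In a mixed culture such as this one, fewer cells of a type and less RNA per cell also cannot be told apart.

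Cyclic stretch is sensed through integrins, the actin cytoskeleton and stretch-gated channels. In many cell types these lead within minutes to hours to mitogen-activated protein kinase (MAPK) signalling and to immediate early genes such as Fos and Egr1, which are transcribed without new protein synthesis. Stretch is also known to act on the YAP and SRF transcription programmes, which read cell shape and actin assembly. Neurons, glia, microglia and connective tissue cells all occur in the embryonic cord, and skeletal muscle arises beside it from the somites.

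Most probe sets differed little between 0 and 2 hours. The log2 ratio of the 2 hour signal to the 0 hour signal had a median of -0.01, quartiles of -0.22 and 0.16, and 1st and 99th percentiles of -1.19 and 0.71. Of the probe sets compared, 90.2% lay within 1.5-fold. The tail on the lower side was the longer one. At least 2-fold higher at 2 hours were 36 probe sets (0.205% of those compared) and at least 2-fold lower were 356 (2.02%), while 354 (2.01%) and 1367 (7.77%) were at least 1.5-fold higher and lower.

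The split between higher and lower depended on the scale. The authors had scaled each array to the same trimmed mean, and the median signal of all probe sets was then 162 at 0 hours and 146 at 2 hours. Scaling both arrays to the same median instead added 0.15 to every log2 ratio. On that scale 79 probe sets (0.449%) were at least 2-fold higher and 203 (1.15%) at least 2-fold lower, and 845 (4.8%) and 885 (5.03%) were past 1.5-fold. The share of lower probe sets among those past 2-fold was 90.8% as deposited and 72.0% at the same median, and among those past 1.5-fold it was 79.4% and 51.2%. Ratios below are on the deposited scale unless the same-median scale is named.

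Median and spread depended on signal as well. The median log2 ratio was -0.12 at mean signals of 100 to 200, 0.07 at 2000 to 5000 and 0.03 above 5000. The interquartile range of the log2 ratio was 0.58 at mean signals of 100 to 200, 0.34 at 500 to 1000 and 0.21 above 5000, and 160 of the 356 probe sets at least 2-fold lower had a mean between 100 and 200. Just below the floor, from 90 to 100, the median log2 ratio was -0.20 with an interquartile range of 0.68. Just above it, from 100 to 110, these values were -0.12 and 0.66. The 2 hour signal was below 100 in 131 of the 356 lower probe sets, and the 0 hour signal was below 100 in 18 of the 36 higher ones. With no replicate array, probe sets of the same gene gave the available measure of technical spread, since the log2 ratios of 2751 genes with several probe sets had a pooled SD of 0.22. That value is a spread between probes on the same pair of arrays and not between cultures. The control probe sets for RNA integrity gave a 3' to 5' ratio of 1.09 at 0 hours and 1.10 at 2 hours for Gapdh, and of 1.82 and 1.53 for beta-actin.

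**Figure D1:**
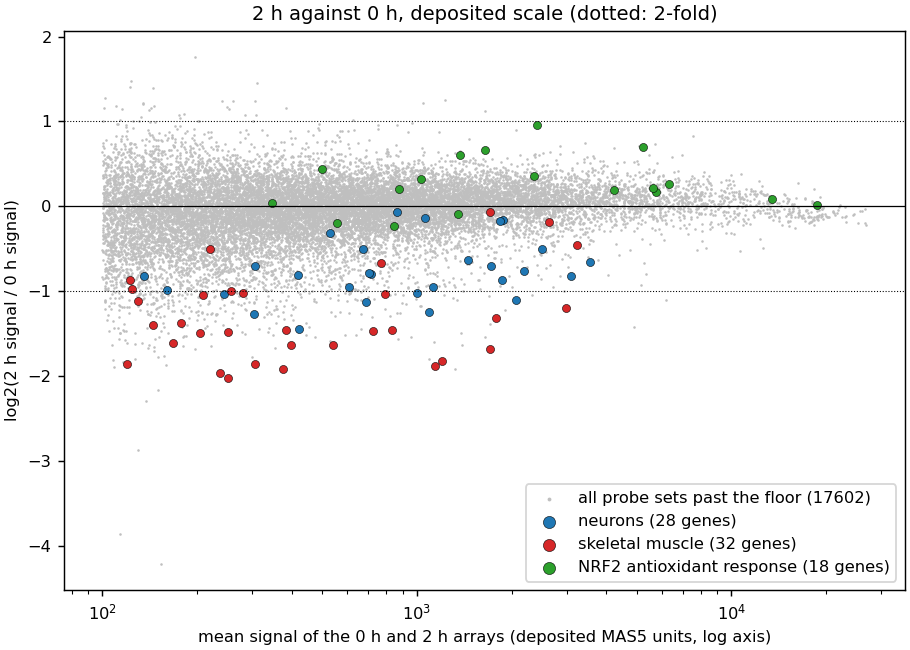
Log2 ratio of the 2 hour to the 0 hour signal against the mean of both signals (log axis) for 17602 probe sets, with genes of 3 lists in colour and 1 point a gene. The spread narrows with signal, the skeletal muscle and neuronal genes lie below 0, and 15 of 18 NRF2 genes lie above 0.

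Genes were taken with 1 probe set each, the brightest one, which left 10441 named genes past the floor. At this level 192 genes (1.84%) were at least 2-fold lower at 2 hours and 14 (0.134%) at least 2-fold higher, and 730 (6.99%) and 173 (1.66%) were at least 1.5-fold lower and higher. At the same median, 107 (1.02%) and 44 (0.421%) were 2-fold lower and higher, and 468 (4.48%) and 406 (3.89%) were 1.5-fold lower and higher. Above 0 were 4979 of the 10441 genes (47.7%) and below 0 were 5461, and at the same median these counts were 7186 (68.8%) and 3255. These shares are the background for the counts of genes in each list. Of the 192 genes, 24 were in the skeletal muscle list, 9 in the neuron and spinal transmitter lists, and 154 in none of the 28 lists examined. The lists held 610 entries past the floor, some genes in several lists, so most of the 10441 genes were in none. Genes past the floor were 32 in the muscle list, 28 in the neuron list and 15 in the spinal transmitter list. Repeat measurements within the arrays were mostly of the same sign. The genes past 2-fold included 32 with other probe sets past the floor, 41 in number, of which 39 had the same sign, 30 were also past 1.5-fold and 15 also past 2-fold.

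Genes of skeletal muscle were lower at 2 hours as a group, although the labels name spinal cord as the only tissue. The list named 45 genes, of which 43 had a probe set and 32 passed the floor. All 32 log2 ratios were below 0, from -2.02 to -0.07, with a median of -1.43 (-1.28 at the same median), against a median of -0.02 over all named genes. At least 1.5-fold lower were 28 of the 32, and at least 2-fold lower were 24, a share of 75% against the 1.84% of all genes. At the same median 20 of the 32 were 2-fold lower, against 1.02% of all genes. Among the 23 members with a signal of at least 100 on both arrays, 17 were 2-fold lower and the median was -1.46. The 11 members below the floor were Myl2, Myh2, Myh7, Myh8, Myf6, Chrng, Ryr1, Cacna1s, Tcap, Myoz2 and Pgam2.

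The master regulators of the myogenic lineage that passed the floor, Myod1 and Myog, were among the lower genes. Myod1, the transcription factor that commits cells to muscle, had a signal of 594 at 0 hours and 157 at 2 hours, a log2 ratio of -1.91. Myog, which drives the differentiation of myoblasts into fibres, went from 2541 to 1023 (-1.31). Mef2c, a partner of these factors that neurons and other cells also express, had nearly equal signals of 1749 and 1668 (-0.07). Of the other muscle regulators listed, Myf6 was below the floor and Myf5 had no probe set named for it.

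The sarcomere genes covered both filaments. Myh3, the embryonic myosin heavy chain, had signals of 1797 and 488 (-1.88). The myosin light chains Myl1 (1869 and 527), Myl11 (2610 and 814) and Myl4 (1225 and 445) had log2 ratios of -1.83, -1.68 and -1.46. Acta1, skeletal alpha-actin, was lower by a smaller ratio, from 4152 to 1815 (-1.19). The troponins, which switch contraction on with calcium, were also lower, from -1.64 for Tnnc2 (821 and 263) and Tnnt1 (604 and 194) through -1.48 for Tnnt3, -1.47 for Tnnc1, -1.46 for Tnni1 and -1.03 for Tnnt2 to -0.50 for Tnni2 (258 and 182). Titin (Ttn, -1.12) and nebulin (Neb, -0.98), the giant scaffold proteins, were both under 100 at 2 hours. Mybph, a myosin-binding protein, had signals of 402 and 98.8 (-2.02, or -1.73 with 32 added to both signals), and Mybpc1, a relative, had signals of 301 and 107, 2.82-fold lower. The Z-disc genes Actn2 (479 and 132) and Ldb3 (188 and 51.9) both had -1.86, and Des, the intermediate filament of muscle, had a smaller ratio (947 and 595, -0.67).

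Genes for calcium handling, membrane and energy gave the same sign. Srl and Casq2, calcium-binding proteins of the sarcoplasmic reticulum, had log2 ratios of -1.96 (376 and 96.3) and -1.39, and the calcium pump Atp2a1 had signals of 343 and 171, just short of 2-fold. Cav3, muscle caveolin, was at 254 and 82.8 (-1.61). The acetylcholine receptor subunits Chrna1 and Chrnd had -1.02 and -0.86. The muscle enzymes Ckm and Eno3 had -1.37 and -1.05. A pair of bright members were nearer to 0, and their probe sets disagreed. Tpm2, a tropomyosin, gave -0.19 by its brightest probe set and -1.52 by the other. Myh1, an adult myosin heavy chain, gave -0.46 by the brightest of 5 probe sets and up to 0.16 by another, and signal from closely related myosin genes cannot be separated by the signals alone.

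**Figure D2:**
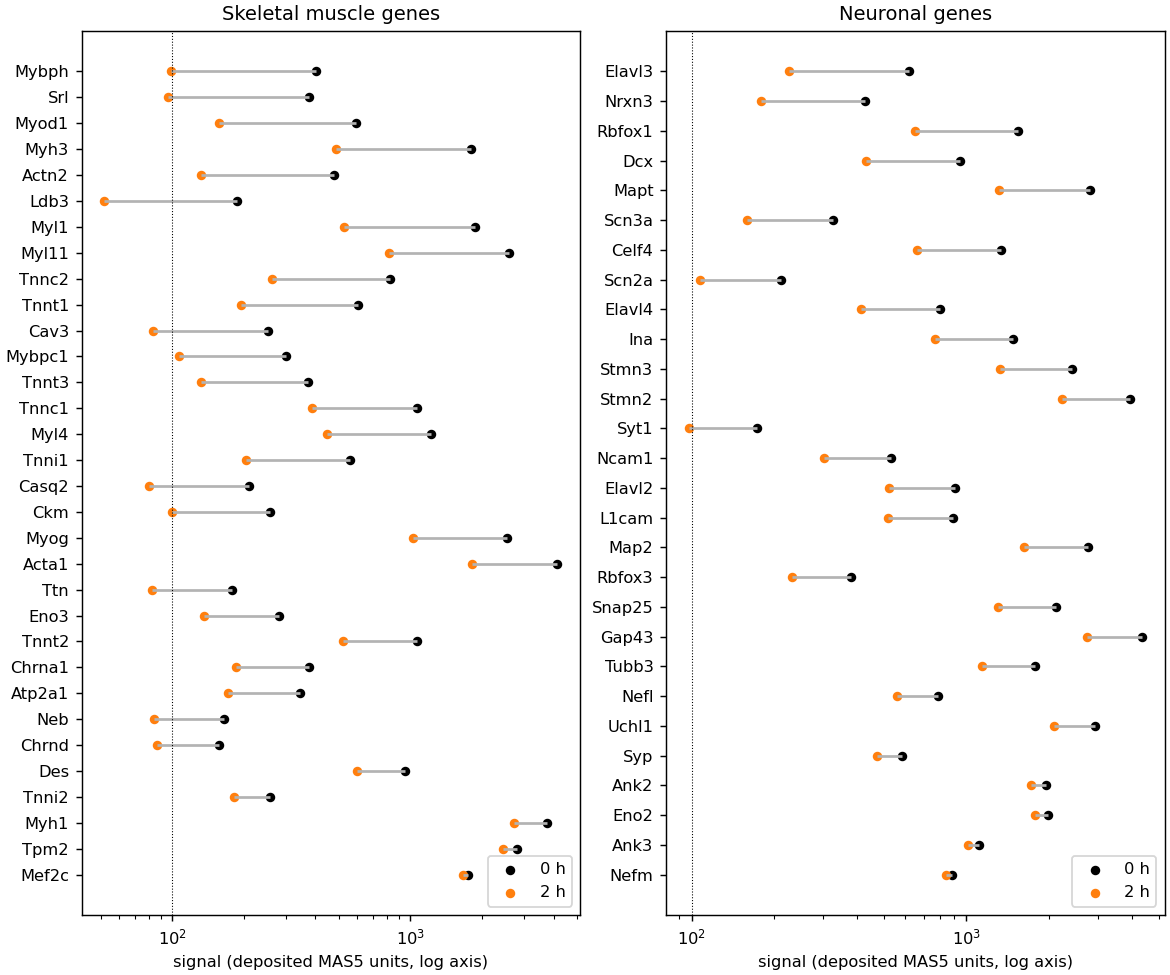
Signal at 0 hours (black) and 2 hours (orange) on a log axis for the 32 skeletal muscle genes (left) and 28 neuronal genes (right) past the floor, ordered by ratio, with a dotted line at a signal of 100. In both panels every gene has its 2 hour point to the left of its 0 hour point.

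The promoters of 4 of these lower genes are shown as examples that hold the 6-base E-box that MyoD and myogenin can bind. The E-box CAGCTG, a palindrome that reads the same on both strands, was searched in RefSeq promoters (GRCr8), each from 250 bases before to 50 bases after the start. It was in 15.1% of all 27457 promoters and in 15.8% of those of the named genes past the floor. Of the 43 muscle genes on the array 35 had a promoter entry and 16 of these (45.7%) held it, as did 9 of the 19 (47.4%) among those at least 2-fold lower. Among all genes at least 2-fold lower it was in 31 of 149 (20.8%), and among those at least 2-fold higher in 3 of 11 (27.3%). In the neuron list it was in 5 of 18 (27.8%). In the 150 bases before the start 5 of those 19 held it (the 4 shown and Mybpc1), and 14 did not, among them Myh3, Myl1, Myl11, Actn2, Ldb3 and Myog. The stretches below are these 150 bases, on the gene's strand, with the E-box in capitals. Cav3 is at chr4:147137843-147137992 on the plus strand, Myl4 at chr10:89976000-89976149 on the plus strand, Ckm at chr1:88189311-88189460 on the plus strand, and Chrna1 at chr3:78877354-78877503 on the minus strand.
Cav3: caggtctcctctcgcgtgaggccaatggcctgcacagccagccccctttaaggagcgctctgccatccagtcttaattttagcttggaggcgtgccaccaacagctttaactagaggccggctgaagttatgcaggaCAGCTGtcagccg
Myl4: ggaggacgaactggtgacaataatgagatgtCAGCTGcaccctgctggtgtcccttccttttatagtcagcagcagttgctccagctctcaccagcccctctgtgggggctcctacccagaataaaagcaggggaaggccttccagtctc
Ckm: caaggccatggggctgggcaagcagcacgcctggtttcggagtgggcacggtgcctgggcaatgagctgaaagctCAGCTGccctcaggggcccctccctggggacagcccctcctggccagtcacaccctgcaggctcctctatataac
Chrna1: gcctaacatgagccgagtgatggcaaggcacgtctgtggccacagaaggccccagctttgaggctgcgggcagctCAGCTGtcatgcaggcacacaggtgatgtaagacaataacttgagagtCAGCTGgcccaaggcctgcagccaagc
Chrna1 holds the E-box at 2 places in this stretch and the other 3 at 1 place each. These genes were chosen for being lower and for holding the E-box. A match describes the letters only and no binding was measured.

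The 0 hour array had the highest summed signal in the series for the muscle genes past the floor. Over the 32 members the sum was 32749 at 0 hours, 16092 at 2 hours, and between 13624 and 20194 on the 5 later arrays. The floor used the 0 and 2 hour signals only, and 23 of the 32 had at least 100 on both. The 11 members below it were left out whatever their later signals, so the set favours the 0 and 2 hour arrays. The median signal was 520 at 0 hours and 184 at 2 hours, and in time order 254, 159, 161, 229 and 112 on the later arrays. Myog followed that order in part, with 2541, 1023, 1411, 614, 784, 1218 and 430. By sum and median, the 2 hour array lay within the range of the later arrays and the 0 hour array above it. Single genes differed. At 0, 2 and 48 hours Myh3 had 1797, 488 and 1404 and Acta1 4152, 1815 and 2372, whereas Myl11 had 2610, 814 and 833. All later arrays are compared here with the same single 0 hour array, so a difference in that 1 pool of cells would appear at every time. The part of muscle cell content in these values was not tested.

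Neuronal genes were also lower at 2 hours, by smaller ratios. Of 32 genes listed, 30 had a probe set and 28 passed the floor, and only Nefh and Cntn2 lay below it. Neuronal transcripts were therefore present in the culture, as its label implies. All 28 log2 ratios were below 0, from -1.45 to -0.07, with a median of -0.81. At least 1.5-fold lower were 21 of 28 (75% against 6.99% of all genes) and at least 2-fold lower were 7 (25% against 1.84%). At the same median the list's median was -0.66, and Ank3 and Nefm then stood at 0.01 and 0.08. On that scale 17 of the 28 were at least 1.5-fold lower (4.48% of all genes were) and 3 at least 2-fold lower (1.02% of all genes were).

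Regulators of neuronal RNA were among the lower genes. The RNA-binding proteins Elavl3 (617 and 226), Rbfox1 (1543 and 649) and Celf4 (1338 and 661) had log2 ratios of -1.45, -1.25 and -1.02, while Elavl4 and Elavl2 had -0.95 and -0.80. The other probe set of Elavl3 gave -0.56, and the 3 of Rbfox1 ranged from -1.27 to -0.95. Rbfox3, which encodes the NeuN antigen used to count neurons, went from 379 to 232 (-0.71).

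Cytoskeletal genes ranged from Dcx to Nefm. Mapt, which encodes tau, had signals of 2819 and 1313 (-1.10), Dcx, a marker of young migrating neurons, 946 and 431 (-1.13), and Ina, an early neurofilament, 1478 and 768 (-0.95). Tubb3, the neuronal tubulin, had 1771 and 1139 (-0.64), and Gap43, a growth cone protein, 4350 and 2752 (-0.66). The neurofilament genes Nefl and Nefm stood at -0.50 and -0.07, nearer to 0 than Ina, so the filament genes differed among themselves. Stmn2 and Stmn3, the microtubule regulators, had -0.83 and -0.87.

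Synapse and channel genes followed. The sodium channel genes Scn3a and Scn2a stood at -1.04 and -0.98, and Nrxn3, a presynaptic adhesion protein, at -1.27. Snap25, part of the vesicle fusion complex, went from 2123 to 1308 (-0.70), and Syp, a vesicle protein, from 585 to 471 (-0.31). Eno2, the neuronal enolase, had 1979 and 1774 (-0.16).

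Genes of spinal transmitter phenotypes could be followed for 15 of 28 measured members, with a median log2 ratio of -0.54 (-0.39 at the same median). At least 1.5-fold lower were 7 of the 15 (46.7% against 6.99% of all genes), of which 2 were past 2-fold (13.3% against 1.84%), and 14 were below 0. At the same median 5 of the 15 were at least 1.5-fold lower, against 4.48% of all genes. Gria2, an AMPA glutamate receptor subunit, had the lowest ratio (792 and 264, -1.59), and its other probe set gave -1.45. Glra2, a glycine receptor subunit, had 471 and 196 (-1.27). Slc17a6, the vesicular glutamate transporter of excitatory neurons, went from 1330 to 686 (-0.96), and Gad1, the GABA-synthesising enzyme of inhibitory neurons, from 1478 to 1014 (-0.54). Calb1, a calcium-buffering protein, was the 1 exception, at 625 and 982 (0.65). The motor neuron genes Chat, Slc18a3, Slc5a7 and Isl1 were below the floor.

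The summed signal of the 28 neuronal genes was 40989 at 0 hours and 25397 at 2 hours, and between 13568 and 21296 on the 5 later arrays. Gap43 had signals of 4350, 2752, 2142, 1476, 1786, 729 and 751 from 0 to 72 hours. Mapt had 2819, 1313, 1227, 510, 1214, 646 and 791. The summed signal was lower on each later array than at 2 hours. These 28 genes had passed a floor on the 0 and 2 hour signals, which favours these 2 arrays over the later ones.

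**Figure D3:**
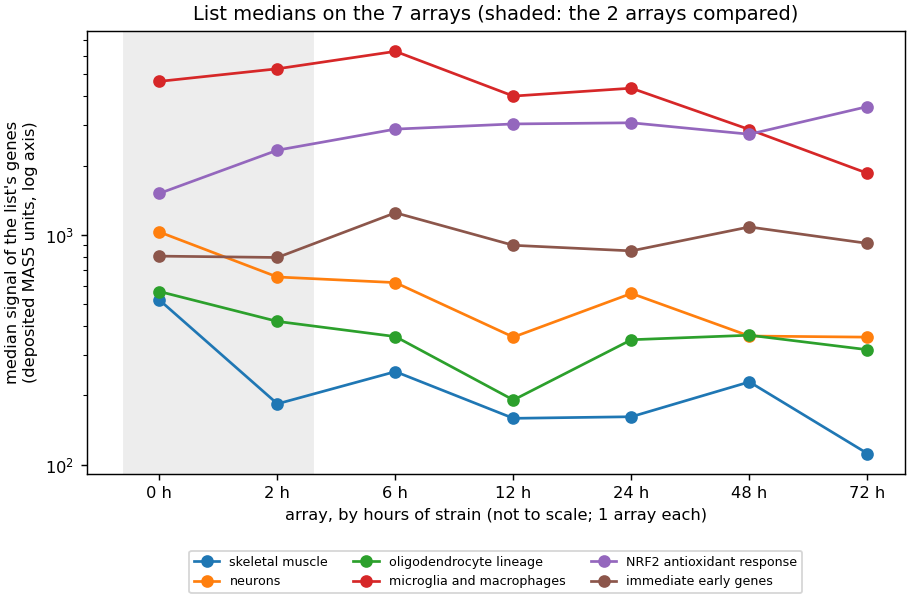
Median signal (log axis) of the genes of 6 lists on each of the 7 arrays, with the 2 arrays compared in grey and 1 array a time. The skeletal muscle median is 520 on the 0 hour array, 184 on the 2 hour array and between 112 and 254 afterwards, and the neuronal median goes from 1027 to 655 and then lies between 358 and 619.

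Glial and other cell types gave mixed values. Of the oligodendrocyte lineage 11 of 14 measured genes passed the floor, all with log2 ratios below 0 and a median of -0.43 (-0.28 at the same median). At least 1.5-fold lower were 5 of these 11 (45.5% against 6.99% of all genes), and 3 at the same median (4.48% of all genes were). Bcas1, an early myelinating cell gene, had 906 and 422 (-1.10). Olig1 and Nkx2-2, transcription factors of the lineage, had -0.92 and -0.85, and Mbp, a myelin protein, went from 2147 to 1407 (-0.61) with other probe sets up to -0.12. Astrocyte and radial glial genes had a median of -0.05 over 20, which became 0.10 at the same median. Aldh1l1 (256 and 125, -1.03) was the only one past 1.5-fold in the deposited values (5% against 6.99% of all genes). Microglia and macrophage genes lay close together between -0.08 and 0.38, with a median of 0.18 over 21 (0.33 at the same median). Above 0 were 18 of the 21, against 47.7% of all named genes, and none was past 1.5-fold. Ctss, a lysosomal protease, went from 8718 to 11224 (0.36), and Itgam, the CD11b integrin, from 409 to 533 (0.38). Fibroblast and meningeal genes had a median of -0.12 over 23 (0.03 at the same median), with none past 1.5-fold in the deposited values. At the same median 2 of the 23 were 1.5-fold higher, where 3.89% of all genes were. Meninges had been removed by the protocol, yet all 23 measured members of that list passed the floor. In the endothelium and blood list only 6 of 16 measured genes passed, with a median of 0.21, and the globin genes Hbb, Hbe1, Hbg1 and Hbz were below the floor. In the Schwann and neural crest list 9 of 16 passed, with a median of 0.23, and Tac1, the precursor of substance P, had -0.82.

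**Figure D4:**
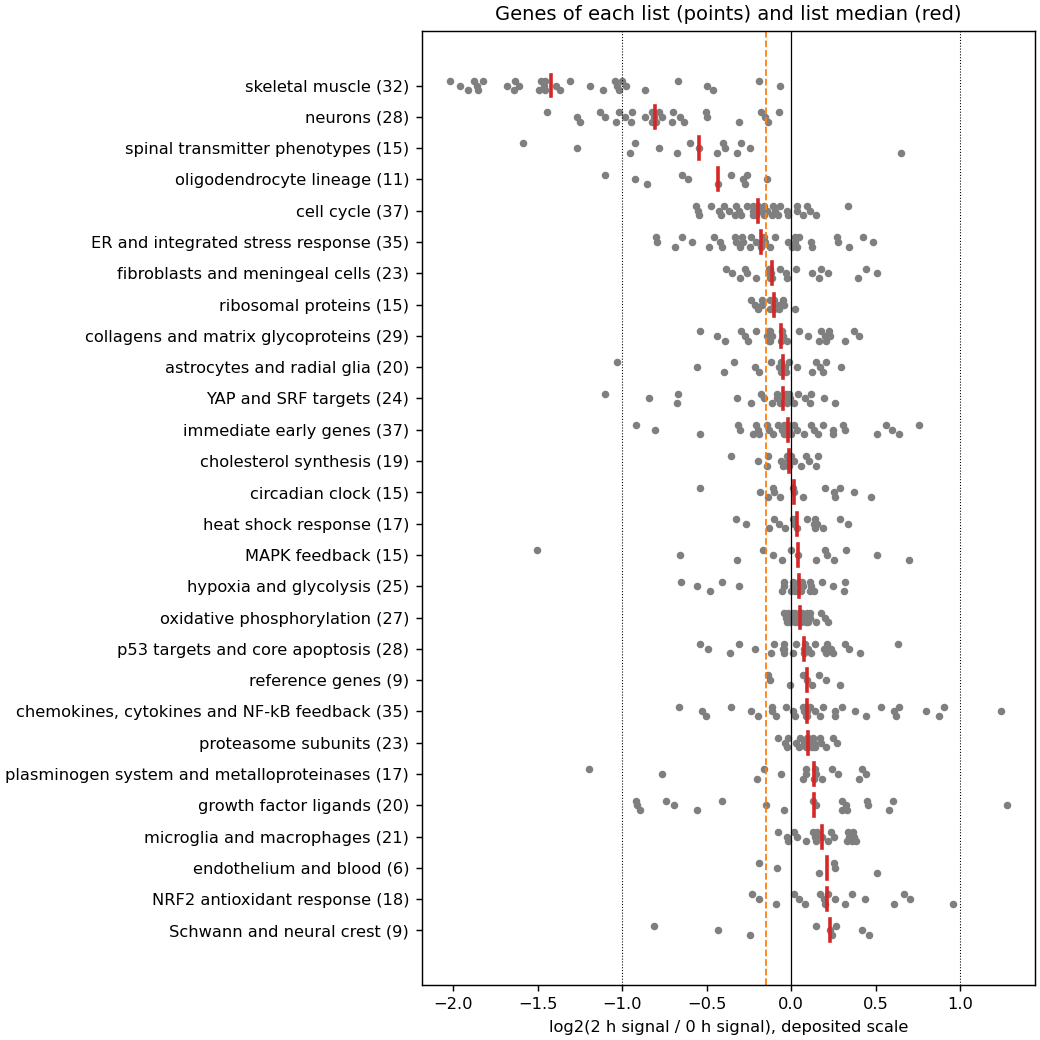
Log2 ratio of the 2 hour to the 0 hour signal for the genes past the floor (grey points, number in brackets) in the 28 lists, ordered by list median (red bar), with 2-fold dotted and the zero line of the same-median scale dashed in orange. The skeletal muscle median (-1.43) is the only one beyond 2-fold, and the neuronal median (-0.81) is next.

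Immediate early genes showed little difference at 2 hours as a group. Of 41 measured, 37 passed the floor (Fosb, Egr3, Egr4 and Arc did not), with a median log2 ratio of -0.02, which became 0.13 at the same median. None was 2-fold different in either direction, where 0.134% of all genes were 2-fold higher and 1.84% 2-fold lower. At least 1.5-fold higher were 3 (8.11% against 1.66% of all genes), Fosl1 (132 and 223, 0.76), Nr4a3 (122 and 189, 0.64) and Gem (333 and 503, 0.60). At least 1.5-fold lower were 2 (5.41% against 6.99% of all genes), Klf2 (594 and 314, -0.92) and Egr1 (5169 and 2959, -0.80). The 3 probe sets of Klf2 ranged from -1.31 to -0.04.

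The AP-1 genes were close to 0. Fos had signals of 1113 and 970 (-0.20), Jun 3014 and 3051 (0.02), Junb 807 and 737 (-0.13), and Jund 9822 and 9791. Fosl2 stood at 0.04 and Atf3, a stress-induced partner, at 0.14. Nr4a1, an orphan receptor of the same early class, had 260 and 256 at 0 and 2 hours and 1434 at 6 hours. Nr4a3 likewise had 722 at 6 hours. Nr4a2, the other member, had 213, 238 and 499.7 on these 3 arrays and 917 at 72 hours. The authors' list of apoptosis genes gives larger Nr4a2 ratios to 0 hours at 2, 6 and 72 hours than this brightest probe set does. Ier3, an early gene linked to cell survival, and Mafk, a small MAF factor, had 0.51 and 0.56. Per1 was at -0.54, Klf10 at -0.31, Myc at -0.30, Gadd45g at -0.23, Ier2 at -0.21, Rhob at -0.19, Nfil3 at -0.14 and Egr2 at -0.11. Crem, Klf4, Ier5 and Sgk1 were at 0.24, 0.24, 0.31 and 0.32, and the remaining members lay between -0.08 and 0.19. The other probe sets of Crem reached 0.75, and the other of Ier5 was at -0.35.

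Feedback inhibitors of the MAPK pathway, which rise when that pathway is active, had a median of 0.04 over 15 genes (0.19 at the same median, 0.15 at a floor of 200 and -0.00 at a floor of 500). Dusp2, a phosphatase of active ERK in the nucleus, had 231 and 374 (0.70) and Errfi1, an inhibitor of the EGF receptor, 1924 and 2736 (0.51). Dusp8, a phosphatase of JNK and p38, was the member furthest from 0, at 327 and 115, or 2.84-fold lower, and Etv4, an ETS factor downstream of FGF, was at 184 and 116 (-0.66). Dusp6 and Dusp1, the usual readouts of ERK and stress kinases, had -0.00 and -0.05. A dimmer probe set of Dusp1 (197 and 146) gave -0.43. Spry1 and Spry2 were at -0.32 and -0.17 and Spry4 at 0.25. The others, Dusp5, Dusp7, Dusp10, Dusp14, Etv5 and Phlda1, lay between -0.11 and 0.32.

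Growth factor ligands went both ways, with a median of 0.14 over 20 genes (0.29 at the same median and -0.01 at a floor of 200). Ligands of the EGF receptor were on the higher side. Areg, amphiregulin, had 59.8 and 145 (1.28), the only member past 2-fold, and its signals were 1013 at 6 hours and 322, 329, 550 and 1035 afterwards. Its 0 hour signal was below 100, so the ratio rests on a dim probe set. Tgfa was at 0.60 (114 and 172), Btc at 0.58 and Hbegf at 0.14. On the lower side, 5 of 20 were at least 1.5-fold lower (25% against 6.99% of all genes) and 2 were that far higher (10% against 1.66%). At the same median the balance turned, with 4 of the 20 lower and 5 of the 20 higher. Both shares were above those of all genes (4.48% lower and 3.89% higher). Tgfb3 had 778 and 412 (-0.92), Bmp4, a dorsal patterning signal of the cord, 538 and 285 (-0.92), and Fgf7 171 and 91.7 (-0.90). Ntf3, neurotrophin-3, had 150 and 89.4 (-0.74) and Fgf9 203 and 126 (-0.69). Vegfa, the endothelial growth factor, went from 774 to 526 (-0.56), and Bdnf from 144 to 181 (0.32). The authors' list of apoptosis genes gives a Vegfa ratio at 2 hours closer to no change than this brightest probe set does. Ereg, Hgf, Lif, Il6, Il11, Gdnf and 4 others were below the floor.

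The list of chemokines, cytokines and NF-kB feedback held 7 of 35 genes at least 1.5-fold higher (20.0% against 1.66%) and 1 at least 1.5-fold lower (2.86% against 6.99%). The median was 0.09 (0.24 at the same median, where 9 of the 35 were past 1.5-fold higher against 3.89% of all genes). Ptger2, a prostaglandin E2 receptor, had 142 and 337 (1.24). Ptgs2, the inducible cyclooxygenase, had 144 and 224 (0.64). Traf1 (120 and 225, 0.91) and Birc3 (197 and 301, 0.61) are survival genes under NF-kB. Ncf1, a subunit of the phagocyte NADPH oxidase, went from 828 to 1515 (0.87), and Il1rn, the interleukin-1 receptor antagonist, from 1069 to 1855 (0.79). In contrast Il1b itself had 311 and 216 (-0.53), and Ccl4, a macrophage chemokine, 2264 and 1431 (-0.66). Serpina3n, an acute-phase protease inhibitor, was at 88.3 and 136 (0.62). The NF-kB subunit gene Relb had 235 and 340 (0.53), and Tnfaip3 and Nfkbia, its usual feedback genes, were at -0.03 and 0.17. Microglial genes, whose median was 0.18, are on the higher side on the same array, and their part in these values was not tested.

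Genes of the NRF2 antioxidant response were higher more often than lower. Of 18 past the floor, 15 were above 0, against 47.7% of all named genes, with a median of 0.21 (0.36 at the same median). At least 1.5-fold higher were 4 (22.2% against 1.66%), and none was that far lower. Srxn1, sulfiredoxin, which restores oxidised peroxiredoxins, had signals of 1637 and 3184 (0.96), and its other probe set gave 0.88. Hmox1, heme oxygenase, went from 3985 to 6491 (0.70), Slc7a11, the cystine importer for glutathione synthesis, from 1272 to 2019 (0.67), and Gsta1, a glutathione transferase, from 1087 to 1655 (0.61). On later arrays Hmox1 lay between 8973 and 14765 and Srxn1 between 3017 and 5585. Txnrd1 and Osgin1 were at 0.36 and 0.44, and Nqo1, a classic target, at 0.26 (5783 and 6921). Gclm (-0.19), a subunit of the rate-limiting enzyme of glutathione, did not follow its partner Gclc (0.32). The antioxidant response element, searched as TGACNNNGC on both strands, was in 8 of the 18 promoters found for the 20 measured genes of this list (44.4%), in 12.2% of all promoters and in 14.7% of those of the named genes past the floor. In the 150 bases before the start it was in none of the promoters of Srxn1, Slc7a11 and Gsta1.

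**Figure D5:**
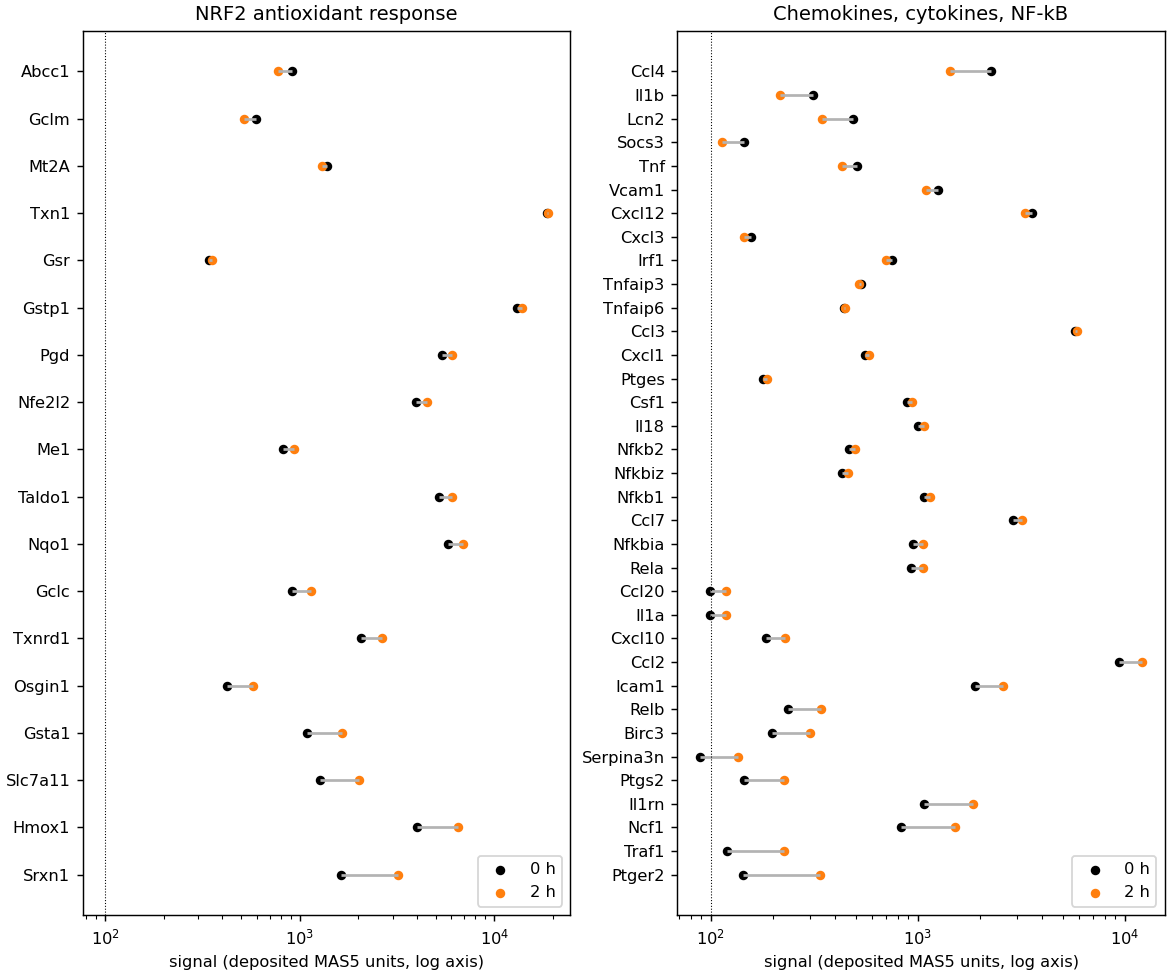
Signal at 0 hours (black) and 2 hours (orange) on a log axis for 18 NRF2 antioxidant response genes (left) and 35 chemokine, cytokine and NF-kB genes (right), ordered by ratio, with a dotted line at a signal of 100. The largest NRF2 ratio is that of Srxn1 (1637 and 3184) and the largest in the right panel that of Ptger2 (142 and 337).

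Genes that are read as mechanical responses were not higher as a group. The YAP and SRF target list had a median of -0.05 over 24 genes (0.10 at the same median), 17 of them below 0, and no member was 1.5-fold higher on either scale. At least 1.5-fold lower were 4 (16.7% against 6.99% of all genes), and 2 of the 24 at the same median, where 4.48% of all genes were. Ankrd1, a standard YAP target that striated muscle also expresses, had 221 and 103 (-1.11). Amotl2, a YAP inhibitor under YAP control, had 1670 and 931 (-0.84). Ccn2, connective tissue growth factor, went from 6475 to 4061 (-0.67), and Ajuba, an adaptor at cell junctions, from 410 to 257 (-0.67). The plasminogen and metalloproteinase list had a median of 0.13 over 17 genes (0.28 at the same median), and 2 of the 17 were at least 1.5-fold lower (11.8% against 6.99%), Mmp13, a collagenase, at 329 and 144 (-1.20) and Adamts5, an aggrecanase, at 312 and 184 (-0.76). Mmp3 and Adamts4 were at 0.44 and 0.42. Mmp7, a metalloproteinase that the list did not include, was higher, at 166 and 455 (1.46).

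Stress programmes other than NRF2 showed smaller or lower values. Of 35 genes of the ER and integrated stress response, 5 were at least 1.5-fold lower (14.3% against 6.99% of all genes) and none 1.5-fold higher, with a median of -0.18 (-0.03 at the same median). At the same median 2 were 1.5-fold lower, a share near the 4.48% of all genes, and 1 was 1.5-fold higher. Atf5 (1446 and 831) and Chac1 (695 and 400), both targets of ATF4, stood at -0.80, Ddit3, which encodes the death-promoting factor CHOP, at -0.69 (913 and 567), and Asns, asparagine synthetase, at -0.65. Trib3 was at -0.59, with its other probe sets down to -1.11. Cebpb, an inflammatory transcription factor, was at 0.48. Heat shock genes had a median of 0.03 over 17, between -0.33 and 0.34. Among 28 p53 and apoptosis genes the median was 0.08. Birc2, an inhibitor of apoptosis, was the 1 past 1.5-fold (1968 and 3049, 0.63), a share of 3.57% against 1.66% of all genes. Bbc3, which encodes PUMA, had 889 and 611 (-0.54). Hypoxia genes had a median of 0.05 over 25, with Adm, adrenomedullin, at -0.65 and Bnip3 at -0.48.

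Growth and housekeeping genes stayed within 1.5-fold in the deposited values. Cell cycle genes had a median of -0.20 over 37 (-0.05 at the same median), 30 of them below 0, with the mitotic genes Cdc25b, Plk1 and Nusap1 lowest at -0.56 to -0.55. Ribosomal protein genes had a median of -0.10 over 15 (0.05 at the same median), proteasome subunits 0.10 over 23, oxidative phosphorylation 0.05 over 27, and the reference genes 0.09 over 9. Collagens and matrix glycoproteins had -0.06 over 29, cholesterol synthesis -0.02 over 19 and the circadian clock 0.02 over 15, and the first 2 of these 3 became 0.09 and 0.13 at the same median. No gene of the cell cycle, cholesterol or reference lists was past 1.5-fold on either scale.

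The genes with the highest ratios formed no single list. Mmp7, matrilysin, had the highest ratio of the named genes, with signals of 166 and 455 (1.46) and of 788 at 12 hours. Plet1 had 67.1 and 178 (1.40), and its 0 hour signal was below 100. Sctr, the secretin receptor, had 728 and 1733, 2.38-fold higher. Cd5l, a protein secreted by macrophages, had 1039 and 2262 (1.12), 2749 at 24 hours and 123 at 72 hours. Cd300c2, a myeloid receptor, had 415 and 839 (1.02), and Lilrb2, a leukocyte receptor, 81.8 and 188 (1.20). These 3 immune genes are on the higher side while the microglial list as a whole had a median of 0.18. Rnf125, a ubiquitin ligase, had 155 and 366 (1.24), and Ecscr, an endothelial surface protein, 199 and 418 (1.07). Mylk2, the myosin light chain kinase of skeletal muscle, went from 62.4 to 139 (1.16), opposite in sign to the muscle list but from a 0 hour signal below 100. Akr1b10 (80.9 and 188) and Dnajc11 (200.4 and 402) each had a second probe set with the opposite sign, at -0.27 and -0.14. Atp8a2 had 66.8 and 134 (1.01), and Rsad2, an interferon-induced antiviral protein, stood at 135 and 270 and just missed 2-fold. Among genes with a mean signal of at least 1000, the next highest after Sctr, Cd5l and Srxn1 were Psca (1445 and 2699, 0.90), Ncf1, Rassf4 (5452 and 9704, 0.83), Il1rn, the scavenger receptor Cd36 (2154 and 3538, 0.72), Hmox1 and the inositol transporter Slc5a3 (3239 and 5230, 0.69). The highest ratio of any probe set was a dim one for Csf1, the macrophage growth factor (89.3 and 304, 1.76), while the brightest probe set of Csf1 gave 0.09, and this pair was singled out after its values were seen.

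Outside the muscle list, low ratios in the deposited values were those of Fgfr4, Dbndd1 and Caskin1, all with 2 hour signals under 100. Fgfr4, a fibroblast growth factor receptor, had 229 and 31.4 (-2.87), and 112 at 6 hours. Its 2 hour signal was far below 100, and with 32 added to both signals the log2 ratio was -2.04. Dbndd1 had 228 and 46.4 (-2.30) and Caskin1, a synaptic scaffold, 246 and 54.8 (-2.17). Pnck, Spock1 and Jph3, all known from neurons, had -1.81, -1.80 and -1.76 and 2 hour signals under 100. Of the 15 lowest genes, 8 were members of the muscle list. Meg3, an imprinted long noncoding RNA, was bright enough to be measured on both arrays, with 1697 and 488 (-1.80), a second probe set at -1.57, and a signal of 2043 at 48 hours. Cdh22, a cadherin, also had signals of 2470 and 947 (-1.38) that were again high at 3700 on the 48 hour array. Spetex2l2 had 2679 and 1145 (-1.23), and Camta1, a calmodulin-binding transcription factor of neurons, 1433 and 634 (-1.18) with another probe set at -0.05. The 2 lowest ratios of all probe sets, -4.22 and -3.86, belonged to probe sets without a gene name here, with 2 hour signals of 15.7 and 14.7.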

How the data were processed

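Signals of 2 Affymetrix rat genome arrays were used. The authors computed the deposited signal intensity per probe set in GCOS with the MAS5 algorithm and scaled each array to a trimmed mean of 500, and detection calls were not used here. Probe sets were named by platform annotation, updated through RefSeq (GRCr8). One symbol was given for 20826, several for 436 and none for 9780, and the latter were not named. Of 784 list entries 700 were measured, 3 of them by an older symbol, and 610 passed the floor. Log2 ratios took no pseudocount and a mean signal of at least 100. Lists used the brightest probe set of each gene. Named were the 15 highest and 15 lowest genes, the 10 highest and 10 lowest with a mean of at least 1000, the 4 members of each list furthest from 0, and any member of the immediate early, MAPK feedback, growth factor and skeletal muscle lists; further members of other lists were named after their values were seen. The arrays, lists and motifs were chosen with earlier results of these data known. The counting was tested on simulated data in which 200 probe sets were altered. These were set past 2-fold by design, with noise smaller than the spread seen here, so only the counting code was checked. Alternatives were other scalings, floors, ratios, an offset of 32, quantile normalization and the methods' ratio of 2 with a difference of 200. Calculations used Python 3.11.15, numpy 2.4.6, pandas 2.3.3 and matplotlib 3.10.9. With 1 array a time, no test was run and the number of arrays limits the precision.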

Additional observations from a re-analysis of the deposited data

How the results depend on the processing

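The counts of probe sets at least 2-fold higher and lower, 36 and 356 in the deposited signals, moved with most settings. They were 79 and 203 with both arrays scaled to the same median, 104 and 599 at a floor of 50, 15 and 196 at a floor of 200, 4 and 70 at a floor of 500, and 2075 and 3069 with no floor. With a signal of at least 100 on both arrays they were 18 and 225, with 32 added before the logarithm 14 and 205, and with a ratio of 2 and a difference of 200 they were 12 and 146. A ratio of 1.5 gave 354 and 1367, a ratio of 3 gave 1 and 42, and 1 probe set a gene gave 14 and 192. Quantile normalization gave 64 and 240. In each of these settings the lower count was the larger. The medians of the muscle, neuron and spinal transmitter lists moved by less than the 0.22 spread between probe sets of a gene in all 27 alternative values. Scaling to the same median adds a fixed 0.15 to every log2 ratio, and setting the median ratio to 0 adds 0.01. Neither could pass 0.22, and that spread is for single probe sets, not for list medians. For single genes 203 alternative values moved by less than the 0.22 spread and 17 by more. The 203 include values that could not move, such as the median over all probe sets of a gene with only 1. The medians of 9 lists near 0 changed sign in at least 1 setting, and 7 of these did so at the same median. No array could be left out and no paired analysis was possible because each time has 1 array. Low signal is one limit, as the interquartile range of the ratio is 0.58 at signals of 100 to 200 and 0.21 above 5000.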
